A study of Mus musculus with 2 samples.

Results

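The 10 genes described here encode enzymes, and 1 accessory protein, that make eicosanoids, the short-lived lipid mediators derived from arachidonic acid. They were taken by name (Alox5, Alox5ap, Lta4h, Ltc4s, Alox15, Ptgs1, Ptgs2, Ptges, Hpgds and Tbxas1) from a count table of 31053 genes. All 10 had a row, and 9 reached the minimum of 50 unique molecular identifiers (UMIs, which count captured transcripts) that was set for comparing clusters, while Ptges had 25. The cells were leukocytes from the aorta of Apoe-/- mice, which lack apolipoprotein E and develop atherosclerotic plaques, and all mice ate a western diet during 4 weeks of weekly injections. The groups were saline and nt-LNA at 30 mg/kg, with 1 single-cell 3' library each (LNA stands for locked nucleic acid, a modified nucleotide of antisense oligonucleotides). Live CD45+/CD3- cells were sorted from the digested aortic arch and thoracic aorta, a gate meant to keep leukocytes and remove T cells. The labels do not state the sex or age of the mice or how many were pooled per library. The deposited counts are sums over the cells of 20 clusters with both libraries together, so a level describes a cluster and not a treatment.

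Arachidonic acid is released from membranes by phospholipases and then enters 1 of several routes. In the leukotriene route, 5-lipoxygenase (Alox5), handed its substrate by the membrane protein FLAP (Alox5ap), makes leukotriene A4, which Lta4h hydrolyses to the neutrophil attractant leukotriene B4 and Ltc4s conjugates with glutathione to leukotriene C4, the first cysteinyl leukotriene. Alox15 oxygenates arachidonic acid at other carbons, and the mouse enzyme has been studied in resident peritoneal macrophages. The cyclooxygenases Ptgs1, usually constitutive, and Ptgs2, usually induced by inflammatory stimuli, make prostaglandin H2, and the terminal synthases Ptges, Hpgds and Tbxas1 convert it to prostaglandin E2, prostaglandin D2 and thromboxane A2.

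On CPM, Ltc4s and Ptgs1 shared their highest cluster while Alox5 and Ptgs2 peaked elsewhere. For that reason the 250 bases before the annotated start of these 4 genes are shown. They come from RefSeq on build GRCm38.p6 and are written 5′ to 3′ on the gene's strand. Capitals mark matches, on either strand, to the motifs named after the sequences. The windows lie upstream of the transcript, at chr11:50238533-50238782 on the minus strand for Ltc4s, chr2:36230176-36230425 on the plus strand for Ptgs1, chr6:116461179-116461428 on the minus strand for Alox5 and chr1:150099781-150100030 on the plus strand for Ptgs2.
Ltc4s: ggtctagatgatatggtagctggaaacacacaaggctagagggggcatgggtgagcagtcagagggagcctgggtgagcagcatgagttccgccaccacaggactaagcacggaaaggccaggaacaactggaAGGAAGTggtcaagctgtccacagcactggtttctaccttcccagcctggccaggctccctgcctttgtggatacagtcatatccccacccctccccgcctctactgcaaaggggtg
Ptgs1: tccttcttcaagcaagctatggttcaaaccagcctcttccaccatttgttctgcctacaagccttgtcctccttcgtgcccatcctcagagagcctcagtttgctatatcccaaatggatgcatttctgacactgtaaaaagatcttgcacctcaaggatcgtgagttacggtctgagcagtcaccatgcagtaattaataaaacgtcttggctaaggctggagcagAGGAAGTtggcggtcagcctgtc
Alox5: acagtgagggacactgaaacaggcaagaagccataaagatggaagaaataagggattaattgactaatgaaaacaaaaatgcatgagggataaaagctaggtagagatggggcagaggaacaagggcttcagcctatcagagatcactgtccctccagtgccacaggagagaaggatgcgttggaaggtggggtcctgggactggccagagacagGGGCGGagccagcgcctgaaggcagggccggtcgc
Ptgs2: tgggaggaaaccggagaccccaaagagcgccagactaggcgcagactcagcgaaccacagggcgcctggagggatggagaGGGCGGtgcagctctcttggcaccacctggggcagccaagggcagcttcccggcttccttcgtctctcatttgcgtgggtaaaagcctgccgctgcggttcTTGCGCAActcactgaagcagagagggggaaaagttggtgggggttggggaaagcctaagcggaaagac

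The motif AGGAAGT, of the kind bound by ETS factors such as PU.1 in myeloid cells, was found in Ltc4s (first base at -117 from the start site) and Ptgs1 (-23). It was also in the window of Hpgds (-48), which peaked in cluster 0, so 3 of the 8 members with a RefSeq window held it, against 7.69% of all 32851 windows of this length. The GC box GGGCGG was found in Alox5 (-35), Ptgs2 (-170) and Ptges (-53 and -42). These are 3 of the 8 members, close to the 32.7% of all windows. The motif TTNNGCAA, of the kind bound by C/EBP factors, was found in Ptgs2 as TTGCGCAA (-69) and in Hpgds as TTATGCAA (-176). These are 2 of the 8 members, against 9.56% of all windows. The E-box CACGTG, present in 6.02% of all windows, was in none of the 8. No match overlapped another in the windows shown. A match is a description of these letters, not a binding site.

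There were 2742 cells from saline and 4871 from nt-LNA, and 2 cell barcodes occurred in both libraries. Cluster totals ran from 212515 UMIs (cluster 16) to 12985745 (cluster 0), and clusters 2, 5, 9, 14 and 16 had a mean under 4000 UMIs per cell. Clusters are given by number because deposited names and markers did not always match. Cluster 7 was deposited as Macrophages, but its summed neutrophil markers, at 103866 CPM (the count over the cluster's total, scaled to 1000000), were the highest of any cluster. Clusters 11 and 16 were deposited as T cells, but their summed T cell markers were 403 and 687 CPM, against 5187 to 8806 in clusters 5, 9, 13 and 14. Their summed markers of group 2 innate lymphoid cells (ILC2), 4274 and 8084 CPM, were the 2 highest. Clusters 6, 8 and 18 were deposited as Macrophages too. In cluster 6 the T cell markers ran from 67.9 CPM (Cd4) to 684 CPM (Cd3g). The summed dendritic cell markers were highest in cluster 8, at 9485 CPM. Those of plasmacytoid dendritic cells were highest in cluster 18, at 11835 CPM. All intervals given are 95% intervals, exact Poisson for CPM and exact Clopper-Pearson for shares, and cover counting error only. With 1 library per treatment, and clusters made from the same expression values, no test was made.

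Cluster 19, 27 cells deposited as Macrophages, carried more of these genes than any other cluster. Of the 9 members with at least 50 UMIs, 7 were at least 2-fold above the mean of the other clusters there (Alox5, Alox5ap, Alox15, Ltc4s, Ptgs1, Ptgs2 and Tbxas1), where 7.96% of all 12780 genes passed the same limit. Cluster 7 followed with 4 members (Alox5, Alox5ap, Ptgs1 and Ptgs2), against 6.51% of all genes. Cluster 0 had 3 (Ptgs1, Hpgds and Tbxas1), against 6.38%, and cluster 10 had 3 (Alox5ap, Ptgs2 and Tbxas1), against 7.10%. The median log2 ratio of the 9 members was 1.79 in cluster 19, 0.75 in cluster 7, 0.38 in cluster 0 and -0.50 in cluster 10, beside -0.29, -0.43, -0.09 and -0.26 for all genes. The cluster 19 values enter the mean of the others. Without that cluster in the mean (an alternative added after seeing the data), the counts were 7 in cluster 7 and 5 in cluster 0. On UMIs per cell in place of CPM, the count in cluster 7 was 2. The share of all genes was not computed under either alternative, so these counts have no background beside them.

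Among the other clusters, cluster 17 had 2 members at least 2-fold higher (Alox5ap and Tbxas1), against 5.57% of all genes. A single member passed in clusters 3 and 13 (Lta4h, against 5.17% and 9.82%), 8 (Ptgs2, against 5.67%), 11 and 16 (Alox5, against 5.70% and 16.7%) and 15 and 18 (Alox5ap, against 6.78% and 9.05%). None passed in clusters 1, 2, 4, 5, 6, 9, 12 and 14, where 2.97%, 10.9%, 3.12%, 20.2%, 8.36%, 12.3%, 2.51% and 21.9% of all genes did. All of these 8 but cluster 6 were deposited as B or T cells. By highest CPM, Alox5ap and Ptgs2 peaked in cluster 7, where 3.33% of all genes peaked, and Alox5 in cluster 16, where 11.8% did.

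**Figure D1:**
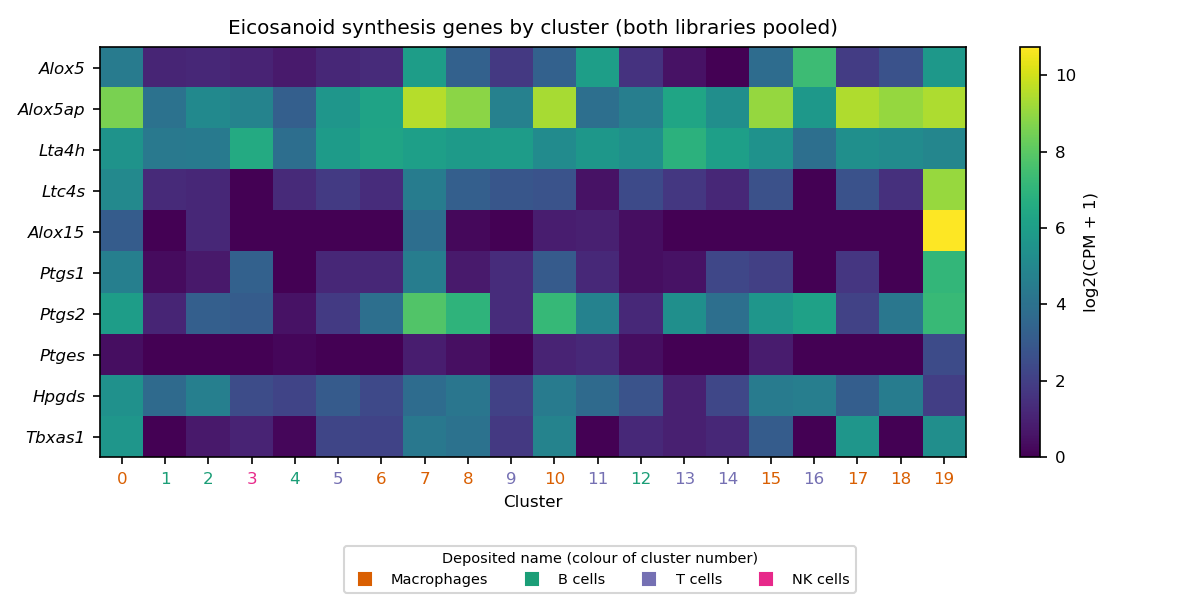
Level of each of the 10 genes (rows) in each of the 20 clusters (columns), as log2(CPM + 1), with both libraries pooled. The colour of a cluster number is its deposited name, and the brightest cell is Alox15 in cluster 19, at 1716 CPM.

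In the leukotriene route, the oxygenase gene and the gene of its partner FLAP were highest in different clusters on CPM, and both in cluster 19 on UMIs per cell. The highest Alox5 level, 165 CPM (115 to 229), was that of cluster 16 and rests on 35 UMIs. Clusters 11 (64.8 CPM, 54.6 to 76.4), 7 (62.8 CPM, 54.9 to 71.5) and 19 (52.1 CPM, 36.3 to 72.5) came next and were not separated by counting error. Cluster 0 followed at 21.1 CPM (18.7 to 23.8), and clusters 15 (7.54 to 20.7), 10 (6.93 to 11.9) and 8 (6.81 to 12.0) had overlapping intervals. The other clusters were at or below 5.53 CPM, and cluster 14 had 0 UMIs, which allows up to 3.85 CPM (3 counts). High Alox5 thus stood in the clusters with the most ILC2 markers, in the cluster with the most neutrophil markers and in cluster 19, and was low in every cluster deposited as B cells.

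The order depended on the scale. The cells of cluster 16 had a mean of only 1897 UMIs, and CPM is a share of those. Per cell, Alox5 stood at 0.312 UMIs in cluster 16, 0.429 in cluster 11, 0.588 in cluster 7 and 1.30 in cluster 19. The ratio of cluster 16 to the mean of the others was 12.4 on CPM and 1.84 on UMIs per cell. By number of UMIs, Alox5 transcripts came mainly from cluster 0 (30.8%), cluster 7 (25.5%) and cluster 11 (16.1%).

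Alox5ap, with 18511 UMIs in all, was a transcript of most myeloid clusters. The extremes were cluster 7 (747 CPM, 719 to 776) and cluster 4 (8.46 CPM, 6.44 to 10.9). After cluster 7 came cluster 17 at 715 CPM (676 to 755), cluster 19 at 679 (618 to 744), cluster 10 at 639 (620 to 660), cluster 15 at 529, cluster 18 at 520, cluster 8 at 469 and cluster 0 at 388 CPM (378 to 399). These 8 were all deposited as Macrophages, although cluster 7 had the most neutrophil, cluster 8 the most dendritic and cluster 18 the most plasmacytoid dendritic cell markers. Next was cluster 13 at 79.4 CPM (68.0 to 92.2). Cluster 6, also deposited as Macrophages but with T cell markers and a proliferation marker sum of 3085 CPM, stood at 74.9 CPM. Adjacent clusters among the highest 4 were not separated by counting error, and the highest was cluster 17 when mitochondrial and ribosomal protein genes were left out of the totals, and cluster 19 on UMIs per cell.

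The clusters with the most ILC2 markers were high in Alox5 but not in Alox5ap. With 31 UMIs, Alox5ap stood at 14.1 CPM in cluster 11, and with 11 UMIs at 51.8 CPM (25.8 to 92.6) in cluster 16, below the level in all 8 of the clusters named first. The median over the 20 clusters, 63.3 CPM, lay inside the interval of cluster 16. Conversely, cluster 17, in which all 8 dendritic cell markers were detected (9417 CPM in sum), had 715 CPM of Alox5ap and 2.80 CPM (0.908 to 6.52) of Alox5. Clusters 7 and 19 held both genes at high levels. Pearson's r of the pair over the 20 clusters, on log2(CPM + 1), was 0.41. All clusters share the same libraries and differ in depth, so this and every r below describes these clusters only.

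Lta4h, whose product makes leukotriene B4, was found in all 20 clusters. The median level was 44.2 CPM, with the lowest in cluster 4 (13.8 CPM, 11.1 to 16.8) and the highest in cluster 13 (118 CPM, 104 to 133). Cluster 3, deposited as NK cells, had 94.8 CPM (85.1 to 105), cluster 6 had 76.6 and cluster 7 had 66.4 CPM. The other clusters high in Alox5 were lower, with 51.2 CPM in cluster 11, 29.8 in cluster 19 and 14.1 (2.91 to 41.3, from 3 UMIs) in cluster 16. In the order of clusters, 1 adjacent pair was separated by counting error. On UMIs per cell the highest was cluster 6.

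Ltc4s, the enzyme of the cysteinyl branch, was concentrated in cluster 19. It stood there at 544 CPM (489 to 602), 17.0 times the next level, 32.0 CPM (29.0 to 35.2) in cluster 0. Cluster 7 had 22.1 CPM (17.5 to 27.5), cluster 8 had 8.43, and all the others were at or below 6.41 CPM. Clusters 3 and 16 had 0 UMIs, which allows up to 0.817 and 14.1 CPM. Because cluster 0 is large, it held 40.4% (37.4 to 43.5) of all Ltc4s UMIs, and the 27 cells of cluster 19 held 35.6% (32.6 to 38.6). Cluster 11, high in Alox5, had a single Ltc4s UMI (0.453 CPM).

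**Figure D2:**
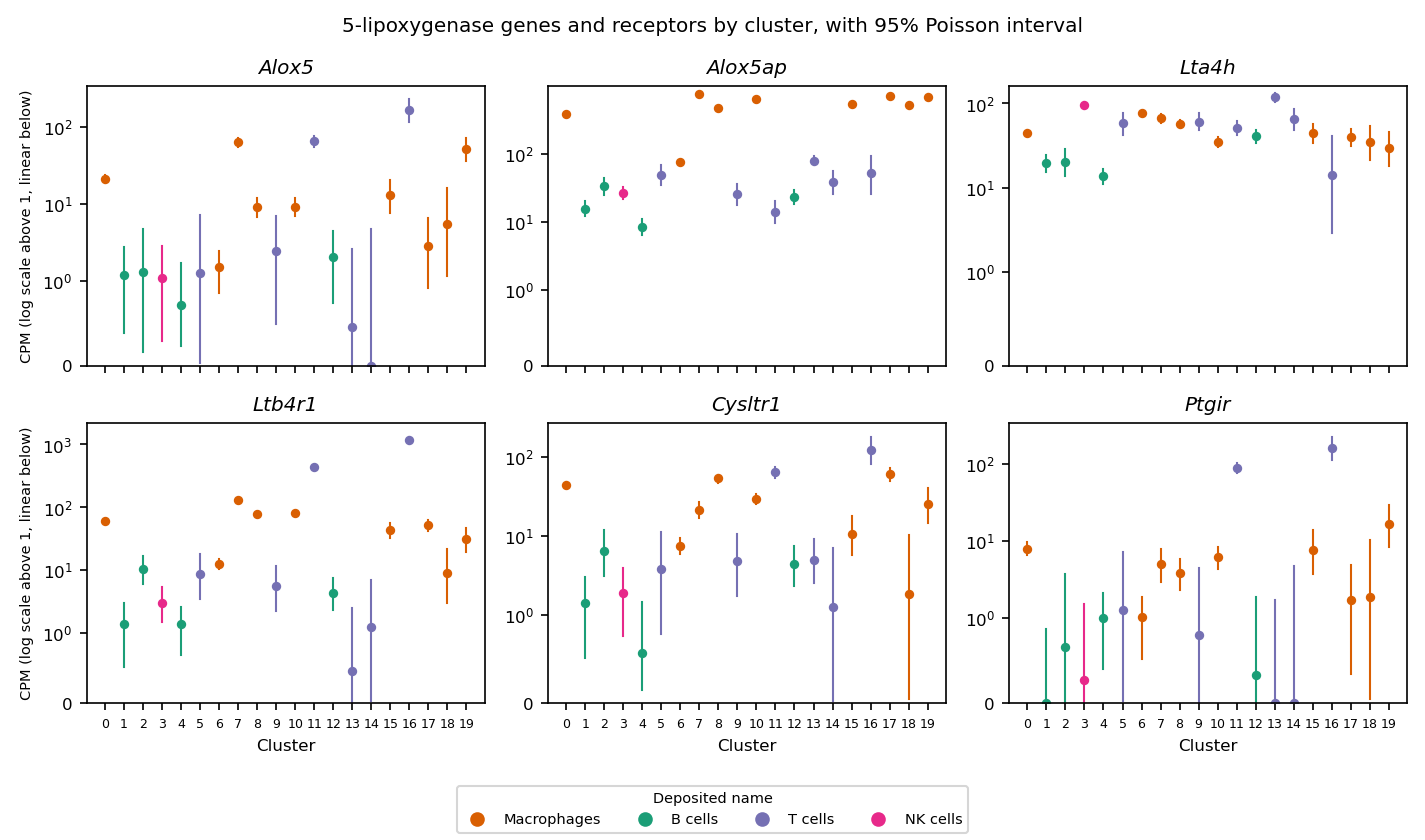
CPM of 3 leukotriene route genes and of the receptor genes Ltb4r1, Cysltr1 and Ptgir in each cluster, with the 95% Poisson interval (log axis above 1 CPM, linear below). Alox5 and the receptors peak in cluster 16 and are high in cluster 11. Alox5ap is low in cluster 11 and near its median in cluster 16.

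Alox15 was the most restricted of the 10. Cluster 19 had 1152 of its 1314 UMIs, 87.7% (85.8 to 89.4), at 1716 CPM (1618 to 1818) or 42.7 UMIs per cell. The next levels were 13.6 CPM (10.0 to 17.9) in cluster 7 and 7.85 CPM (6.40 to 9.54) in cluster 0. A further 5 clusters had 1 to 5 UMIs and 12 had 0, among them clusters 15, 17 and 18. The highest level was 127 times the second. Of the 9 members, 4 were at least 2-fold higher in their highest cluster than in the next (Alox15, Ltc4s, Ptgs1 and Alox5), against 13.8% of all genes, and 3 were highest in cluster 19, against 3.52%. The ratio to the mean of the others was 1307, and 736 against the pooled other clusters, where cluster 0, with 18.5% of all UMIs, weighs more. Other lipoxygenases were near absent, with 16 UMIs of Alox8 in all, 3 of Alox12e and 1 of Alox12, the platelet-type 12-lipoxygenase.

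The cyclooxygenases differed in breadth. Ptgs1 was highest in cluster 19 at 139 CPM (112 to 170), 5.86 times cluster 0 at 23.6 CPM (21.1 to 26.4). Cluster 7 at 22.4 CPM (17.8 to 27.8) was not separated from cluster 0. Cluster 3 had 8.99 CPM (6.19 to 12.6), the highest Ptgs1 among clusters deposited as lymphoid, and cluster 10 had 7.39 CPM. Clusters 4, 16 and 18 had 0 UMIs. Cluster 0 held 51.3% of the 599 UMIs.

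Ptgs2, the inducible form, was spread over several myeloid clusters. Its highest level was 229 CPM (213 to 245), in cluster 7, above clusters 19 (152 CPM, 124 to 184), 10 (146 CPM, 137 to 156) and 8 (126 CPM, 117 to 135). On UMIs per cell the highest was cluster 19, and cluster 10 also stood above cluster 7. Cluster 16 had 70.6 CPM (39.5 to 116), cluster 0 had 62.9, cluster 15 had 48.8 and cluster 13 had 40.4 CPM (32.4 to 49.8). Cluster 17 was low at 3.35 CPM (1.23 to 7.30), unlike cluster 8, although both were high in dendritic cell markers. Cluster 4 was lowest at 0.430 CPM. Clusters 19 and 10 were not separated by counting error, and cluster 8 lay below cluster 10. The Ptgs2 UMIs were divided between cluster 10 (23.8%), cluster 7 (21.7%), cluster 0 (21.4%) and cluster 8 (18.4%). Cluster 8 thus held Ptgs2 at 126 CPM with 0.717 CPM of Ptgs1 (0.195 to 1.84), while clusters 0, 7 and 19 held both.

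**Figure D3:**
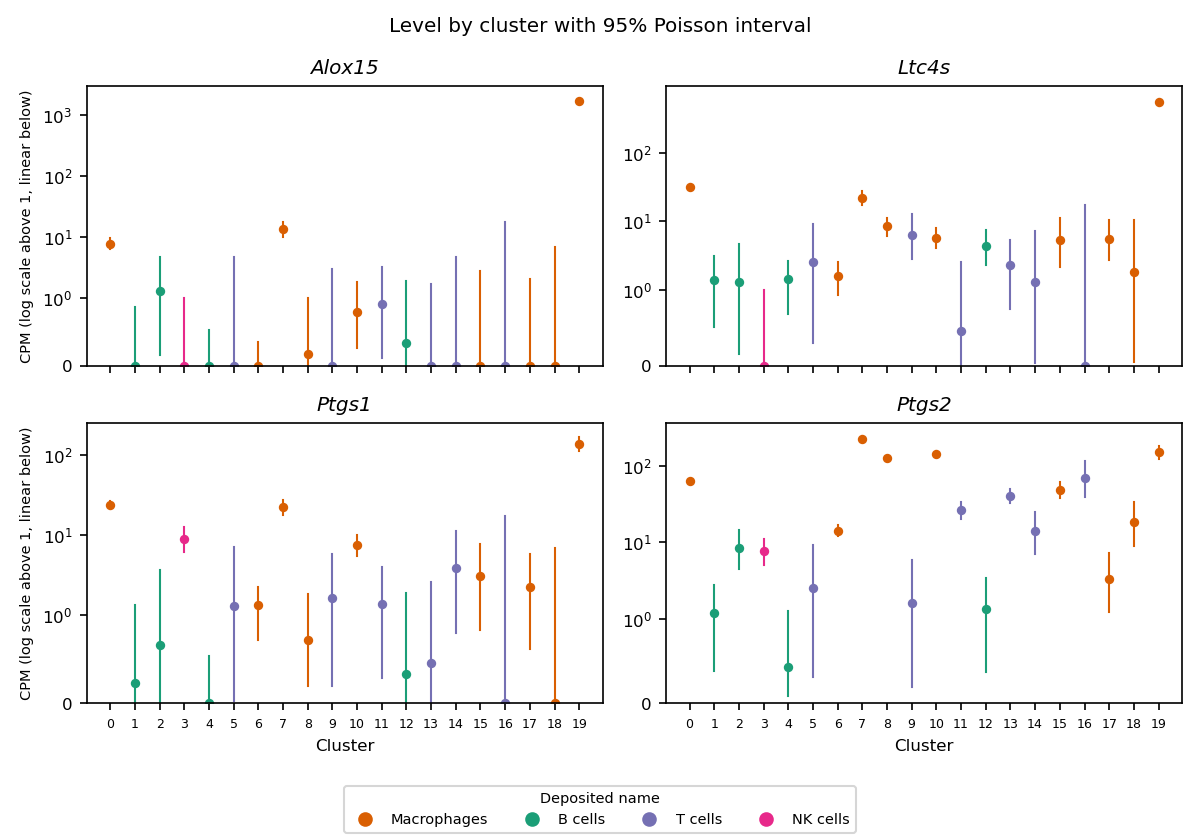
CPM of Alox15, Ltc4s, Ptgs1 and Ptgs2 in each cluster, with the 95% Poisson interval (log axis above 1 CPM, linear below). Cluster 19 is highest for Alox15, Ltc4s and Ptgs1, and cluster 7 for Ptgs2.

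Among the terminal synthases, Ptges was near the limit of detection. Its 25 UMIs lay in 9 clusters, at most 4.47 CPM (0.921 to 13.1, from 3 UMIs) in cluster 19 and 1.12 CPM (0.452 to 2.32) in cluster 10, so its order was not resolved at this depth. Cluster 7, highest for Ptgs2 on CPM, had 0.830 CPM (0.171 to 2.42) of Ptges. Ptges3, which encodes a cytosolic prostaglandin E synthase that is also the HSP90 co-chaperone p23, was broad, with 249 CPM in cluster 6.

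Hpgds, the hematopoietic prostaglandin D synthase, was highest in cluster 0 at 42.4 CPM (39.0 to 46.1), with 49.1% of its UMIs. Clusters 2 (23.6 CPM), 16 (23.5), 18 (22.1), 15 (21.3) and 10 (21.0) followed and were not separated from one another. In cluster 19 it was low, at 2.98 CPM (0.361 to 10.8), and Hpgds and Lta4h were the only members of the 9 below the 2-fold limit there. The lowest level was 0.918 CPM, in cluster 13. The interval of cluster 16 (7.64 to 54.9, from 5 UMIs) also reached that of cluster 0. Cluster 11 had 12.2 CPM (8.07 to 17.8).

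Tbxas1, thromboxane A synthase, was shared by clusters 0 at 48.7 CPM (44.9 to 52.6), 17 at 48.6 (39.0 to 60.0) and 19 at 38.7 (25.3 to 56.7), which were not separated. Cluster 10 had 26.7 CPM (22.8 to 31.0), cluster 7 had 18.5 and cluster 8 had 15.8 CPM. No cluster deposited as B, T or NK cells was above 3.80 CPM, and clusters 1, 11, 16 and 18 had 0 UMIs. The highest cluster was 17 with edgeR's TMM or DESeq2's size factors and 19 on UMIs per cell. The gene of the thromboxane receptor, Tbxa2r, named outside the rule after its values were seen, went elsewhere. It had 104 CPM (82.6 to 129) in cluster 5, 86.0 in cluster 14 and 79.3 in cluster 9, all deposited as T cells. Cluster 18, deposited as Macrophages but with the most plasmacytoid dendritic cell markers, had 66.3 CPM (46.5 to 91.8), against 13.2 CPM in cluster 0.

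**Figure D4:**
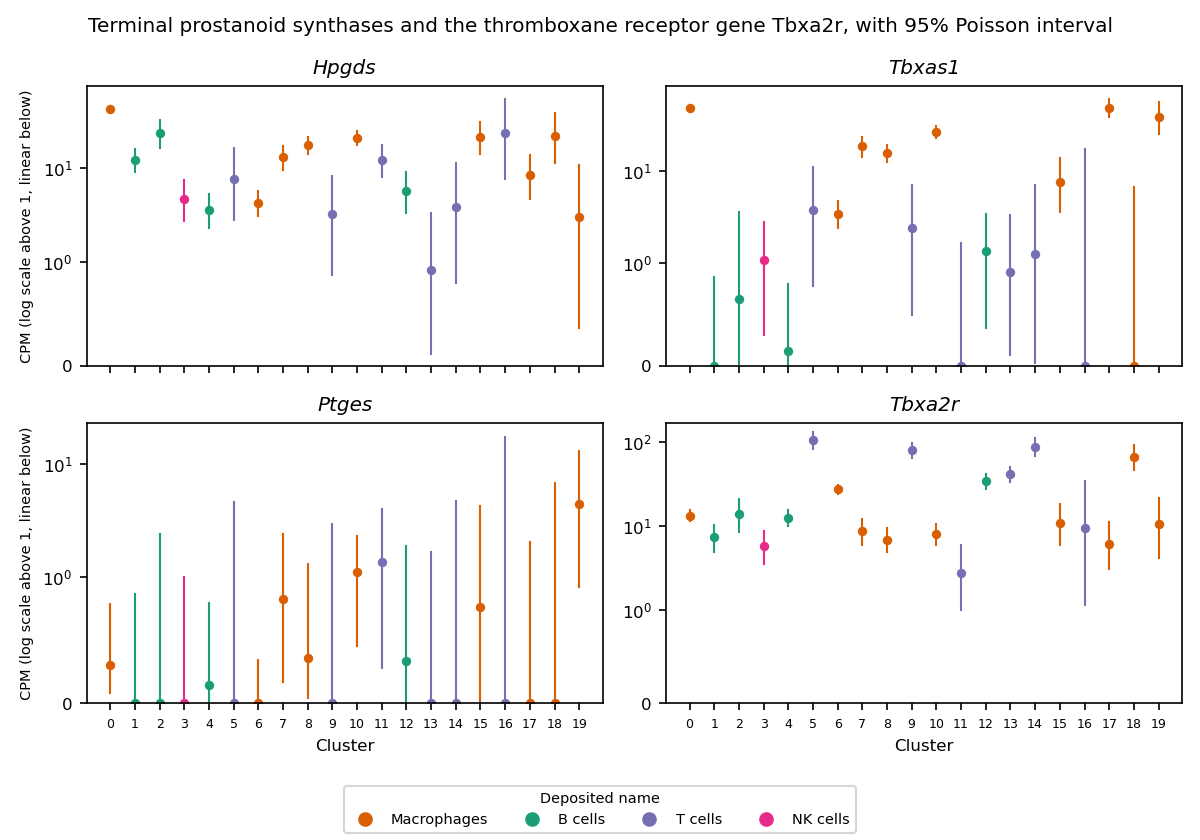
CPM of the terminal synthase genes Hpgds, Tbxas1 and Ptges and of the thromboxane receptor gene Tbxa2r in each cluster, with the 95% Poisson interval (log axis above 1 CPM, linear below). Hpgds and Tbxas1 are highest in cluster 0, Ptges is near 0 throughout and Tbxa2r is highest in cluster 5.

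Markers of other cell types were detected in several of the clusters high in these genes. In cluster 0, 8 of 8 basophil markers had UMIs and their sum was the highest of any cluster, 241 CPM against a median of 12.4 over the 20. All 7 mast cell markers also had UMIs there (636 CPM in sum), with the mast cell protease Mcpt4 at 262 CPM. The same protease had 148 CPM in cluster 7 and 188 in cluster 10, and the mast cell sum was highest in cluster 7, at 995 CPM, of which Hdc, also a gene of neutrophils, gave 689 CPM. Basophils and mast cells are known for Alox5, Ltc4s and Hpgds, and counts per cell are not used here, so their part in the levels of clusters 0, 7 and 10 was not tested.

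In cluster 16 the basophil proteases Mcpt8 and Prss34 and the mast cell protease Mcpt4 had 0 UMIs, with 2 of 8 basophil and 3 of 7 mast cell markers detected, among them Kit at 475 CPM. In cluster 19, Mcpt8, Prss34, Fcer1a and Tpsb2 were at 0, and 1 of 8 basophil markers was detected, while the mast cell sum was 155 CPM, of which Hdc gave 133. Neutrophil markers summed to 4078 CPM there, with Ly6g and Ngp at 0. Its platelet sum was the highest, 2646 CPM, but Pf4 alone gave 2636 CPM, while Ppbp, Itga2b, Gp9, Gp1ba and Tubb1 were at 0. Those 5 say little at this depth, since Gp9 and Tubb1 had 0 UMIs in all clusters and Ppbp, Itga2b and Gp1ba had 17, 66 and 7 in all. The part of platelet RNA was not tested. Platelets are known for Ptgs1 and Tbxas1. Cluster 19 had the highest sum of macrophage markers, 7226 CPM, and of serous cavity macrophage markers, 7683 CPM, with 8 of 8 detected in both lists. The transcription factor Gata6 stood at 31.3 CPM there, and at most at 1.94 CPM in clusters 0, 7, 10 and 16. Eosinophil markers, for another cell type known for Alox15 and Ltc4s, summed to 1.49 CPM in cluster 19 and were highest in cluster 7, at 26.3 CPM. The neutrophil gene S100a8 had UMIs in every cluster, at least 23.9 CPM. The part of free RNA in the low levels of myeloid members in lymphoid clusters was not tested.

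The wider pathway list held 60 other genes, of which 36 had at least 50 UMIs. Of those, 9 were at least 2-fold higher in each of clusters 10, 15 and 19 (25.0%, against 7.10%, 6.78% and 7.96% of all genes). In cluster 16 it was 8 (22.2%, against 16.7% of all genes), and in clusters 0 and 7 it was 7 each (19.4%, against 6.38% and 6.51%). In cluster 15, Alox5ap was the only synthesis gene of the 9 at that level. By list, the cluster held 3 such genes under arachidonate release, 2 under other leukotriene steps and 1 under other prostanoid synthases. A further 2 were listed under inactivation and transport and 1 under receptors. The 3 listed under arachidonate release included Pla2g7, at 411 CPM (377 to 447) there, although this lipoprotein-associated phospholipase breaks down platelet-activating factor. Also highest in cluster 15 was Hpgd, which inactivates prostaglandins, at 134 CPM (115 to 155).

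Of the other phospholipases in the list, Pla2g16 was highest in cluster 3 at 158 CPM (146 to 172), with 141 CPM in cluster 11, and Pla2g12a in cluster 13 at 84.0 CPM. Among further prostanoid synthases, Ptgis, which makes prostacyclin, followed Alox15, with 219 CPM (185 to 257) in cluster 19, 12.6 CPM in cluster 0 and 5.25 CPM in cluster 7. Cbr1 and Akr1b3, carbonyl and aldose reductases, were broad, at most 56.1 CPM in cluster 9 and 143 CPM in cluster 13. The microsomal glutathione transferases, relatives of Ltc4s, had patterns of their own. Mgst1 was similar in clusters 19 (197 CPM), 7 (190) and 10 (175), Mgst2 was highest in cluster 5 at 124 CPM, and Mgst3 in cluster 8 at 55.2 CPM. Of the inactivating enzymes, Cyp4f18, a hydroxylase of leukotriene B4, stood at 348 CPM in cluster 2, 339 in cluster 15, 285 in cluster 7 and 214 in cluster 10, and Ptgr2 was at most 34.2 CPM, in cluster 5.

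The receptor list held 15 genes, 9 of them with at least 50 UMIs. In cluster 16, 5 of the 9 were at least 2-fold higher (Ptger2, Ptgir, Ltb4r1, Cysltr1 and Cysltr2), where 16.7% of all genes passed, and in cluster 11 it was 4 (the same without Ptger2), where 5.70% of all genes passed. Of these, Ptger2 and Cysltr2 were named after their values were seen. Ltb4r1, the high-affinity leukotriene B4 receptor, reached 1172 CPM (1031 to 1327) in cluster 16 and 438 CPM (410 to 466) in cluster 11, against 131 CPM in cluster 7, the next highest. Cysltr1, a receptor of cysteinyl leukotrienes, had 122 CPM (79.9 to 179) and 63.5 CPM (53.4 to 74.9) in the same clusters. Ptgir, the prostacyclin receptor, had 160 CPM (111 to 224) and 88.4 CPM (76.4 to 102). The 2 clusters with the most ILC2 markers were thus the highest for all 3 receptors on CPM, although clusters 17 (60.4 CPM, 49.5 to 72.9) and 8 (53.1 CPM, 47.2 to 59.5) were not separated from cluster 11 for Cysltr1. On UMIs per cell, cluster 11 was highest for Ltb4r1 (2.90) and Ptgir (0.586), and cluster 17 for Cysltr1 (1.08). Ptger4, a prostaglandin E2 receptor, was highest in cluster 8 at 114 CPM (105 to 123).

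Over the 20 clusters, the genes whose pattern was most like each member's were sought among 10685 genes with at least 200 UMIs. For Alox15 they were Prg4 (r = 0.979), Cxcl13 (0.973) and Ptgis (0.967), all highest in cluster 19. Alox15 had 0 UMIs in 12 clusters and 87.7% of its UMIs in cluster 19, so these r lean on few clusters. No r without cluster 19 is given for them. For Ltc4s they were Ednrb (0.917), Fcna (0.906) and Pmp22 (0.901), also highest there. Ptgs1 was most like the complement genes C1qa (0.888), C1qc (0.887) and C1qb (0.876), which share its order of clusters 19 and 0. Ptgs2 was most like Cdkn1a (0.918), Lilr4b (0.903) and Ccrl2 (0.874). The genes nearest to Alox5 were Lpcat2 (0.930), an acyltransferase that makes platelet-activating factor, the prostacyclin receptor Ptgir (0.922) and Nfkbiz (0.917), and all 3 were highest in cluster 16.

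For Alox5ap the nearest were Ltbr (0.947), Gpr35 (0.926) and Ogfrl1 (0.926), and for Tbxas1 they were Fkbp1b (0.955), Wdfy3 (0.920) and Gatm (0.918). Lta4h (Ankrd13a 0.830, Anks1 0.812 and Med30 0.810) and Hpgds (Ndst2 0.812, Atp6ap1 0.811 and Skil 0.797) had no gene as near. Among the members themselves, r was 0.88 for Alox15 and Ltc4s, 0.83 for Alox15 and Ptgs1, 0.79 for Ltc4s and Ptgs1 and 0.79 for Alox5ap and Tbxas1, and 0.54 for the cyclooxygenase pair. Without cluster 19, an alternative added after seeing the data, these were 0.67, 0.72, 0.58, 0.77 and 0.47.

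The study set nt-LNA against saline, and for these genes the files allow that only through how many cells of each library fell in the clusters where a gene was at least 2-fold higher. Clusters high in Ptgs2 (7, 8, 10 and 19) took in 22.9% of the saline library (21.3 to 24.5) and 10.7% (9.80 to 11.6) of the nt-LNA library. Those high in Alox5ap (7, 10, 15, 17, 18 and 19) held 20.4% (18.9 to 22.0) and 10.3% (9.47 to 11.2). For Tbxas1 (0, 10, 17 and 19) the shares were 22.3% (20.8 to 23.9) and 16.7% (15.7 to 17.8), for Ptgs1 (0, 7 and 19) 21.6% and 15.7%, and for Alox5 (7, 11, 16 and 19) 13.2% (12.0 to 14.5) and 10.2% (9.35 to 11.1). In these 5 the intervals of the libraries did not overlap, and the share was lower in the nt-LNA library. Single clusters differed in this. Those lower in nt-LNA with separated intervals were 7 (8.28% and 3.26%), 10 (7.62% and 3.06%) and 8 (6.78% and 3.88%). Cluster 11, in the Alox5 set, was higher, with 3.43% (2.78 to 4.18) of saline and 4.91% (4.32 to 5.55) of nt-LNA. The intervals overlapped for clusters 0, 15, 16, 17, 18 and 19, of which 16, 18 and 19 were higher in nt-LNA.

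For Lta4h (3 and 13) the shares were 12.1% and 11.1%, and for Hpgds (0) 13.1% (11.9 to 14.4) and 11.9% (11.1 to 12.9), with overlapping intervals. The share of a gene's own UMIs in its clusters ranged from 17.0% (Lta4h) to 87.7% (Alox15). It was 35.6% for Ltc4s, 49.1% for Hpgds and 49.4% for Alox5, so much of these transcripts lay elsewhere. Cluster 19, for Alox15 and Ltc4s, held 5 saline cells, 0.182% (0.0592 to 0.425), and 22 nt-LNA cells, 0.452% (0.283 to 0.683), also with overlapping intervals. With the 5 clusters under 4000 UMIs per cell left out, the ratio of nt-LNA to saline shares moved from 0.466 to 0.555 for Ptgs2 and from 0.505 to 0.601 for Alox5ap. It went from 0.771 to 0.863 for Alox5, 0.727 to 0.865 for Ptgs1 and 0.749 to 0.891 for Tbxas1, and turned from 0.917 to 1.09 for Lta4h and from 0.913 to 1.09 for Hpgds. The intervals of the libraries then overlapped for Alox5 (12.9 to 15.9 and 11.3 to 13.5) and Tbxas1 (25.1 to 28.8 and 22.6 to 25.5). These sets share clusters, so their shares are not independent of one another, and with 1 library per treatment a difference has no replicate check and describes these 2 libraries.

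**Figure D5:**
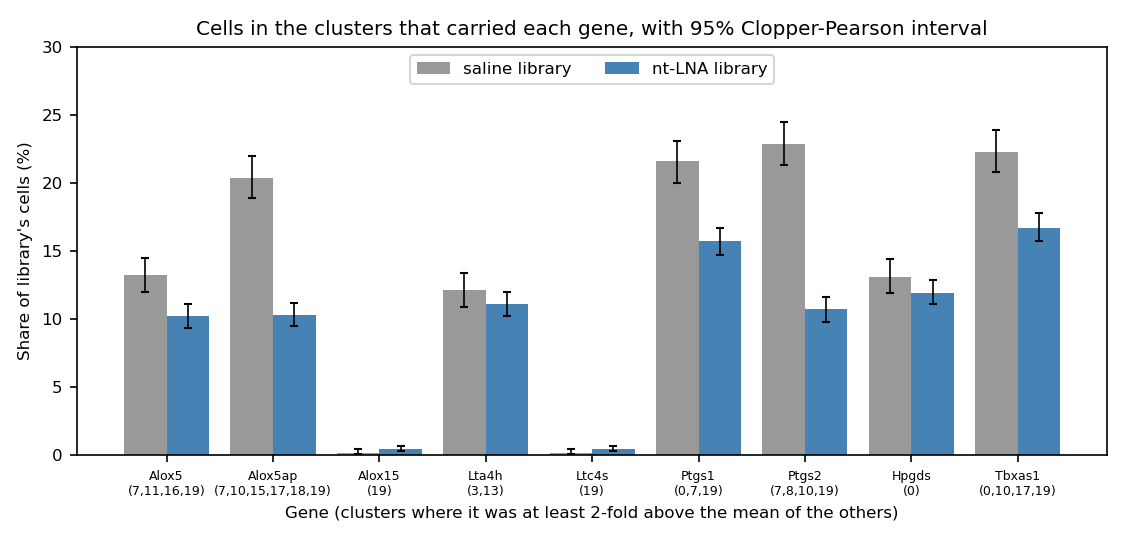
Share of each library's cells (%) in the clusters where a gene was at least 2-fold above the mean of the other clusters (cluster numbers in brackets), with 95% Clopper-Pearson intervals, for saline (grey, 2742 cells) and nt-LNA (blue, 4871 cells). The widest gaps are for Ptgs2 (22.9% and 10.7%) and Alox5ap (20.4% and 10.3%).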

How the data were processed

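Leukocytes of 1 saline and 1 nt-LNA library were profiled by 10x Chromium 3' RNA sequencing on a NovaSeq, per the labels' protocols. The submitters' processing notes name Cell Ranger 2.1.1, Seurat and the build mm9. The deposited counts are whole-number UMI counts per gene, summed by the authors within each of 20 clusters across both libraries. A deposited table gives each cell's library, cluster and cell type name, and its tallies equalled the deposited counts of cells per cluster (largest difference 0). The labels state no filter on cells and no doublet removal. Doublets could not be called here, because counts of single cells are not used.

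CPM was computed here as the count over the cluster's total. Ratios divide the CPM of a cluster by the unweighted mean of the remaining clusters, for genes with at least 50 UMIs, with 2-fold as the limit. Likeness used log2(CPM + 1) and genes with at least 200 UMIs. Promoter windows were taken from RefSeq (GRCm38.p6), which had 8 of the 10 members, not Alox15 and Alox5ap. They were used for sequence only, and no coordinate of another build was used.

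The 10 members and all lists were chosen with earlier results of these data known. By rule, the text names the members, the 3 genes of each pathway list with the most UMIs and any above 200 CPM in a cluster, and the 3 genes most like each member. Alternatives were edgeR 4.0.16 TMM and DESeq2 1.42.0 size factors (R 4.3.3), UMIs per cell, other references and other count minimums. Calculations were made with Python 3.11.15 (scipy 1.17.1, pandas 2.3.3, numpy 2.4.6), drawn with matplotlib 3.10.9, and checked on simulated data.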

Additional observations from a re-analysis of the deposited data

How the results depend on the processing

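No paired analysis was possible because there was 1 library per treatment and the counts pool both. Of the number of members at least 2-fold higher in clusters 0, 7, 10 and 19, only that of cluster 7 moved by over 1.5 times under the other scalings, count minimums and the pooled reference, from 4 to 2 on UMIs per cell. Without cluster 19 in the reference, an alternative added after seeing the data, it was 7, and that of cluster 0 was 5 in place of 3. The share of all genes was not computed under these alternatives. In the cluster where its CPM was highest, no member's ratio to the other clusters fell below 1 under an alternative. That cluster was picked by the same counts, so a ratio above 1 was nearly set in advance and is no check. The ratio of nt-LNA to saline shares turned from 0.917 to 1.09 for the Lta4h clusters and from 0.913 to 1.09 for the Hpgds cluster without the clusters under 4000 UMIs per cell. The cluster with the highest level stayed in 28 of 36 comparisons of a member and a scaling. Of the 8 changes, 5 came on UMIs per cell, where deep clusters such as 19 gain. Other values were less steady. Ratios were counted as moved in 32 comparisons, 9 of them on UMIs per cell, and as the same in 28. Library shares were counted as moved in 13 and as the same in 5. Under the alternatives that moved it, the ratio of cluster 19 to the others was 736 to 3059 for Alox15 and 57.2 to 212 for Ltc4s. For Ptgs1 it was 33.1 on CPM and 75.3 per cell. For these genes too, cluster 19 was picked by the same counts. Depth limits Ptges everywhere and all members in cluster 16, where 3 UMIs equal 14.1 CPM.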
